A study of Mus musculus with 10 samples.

Results

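The regions described here are stretches of DNA listed with more acetylation of histone H3 lysine 9 (H3K9ac) at 240 h of 3T3-L1 differentiation than at an earlier time. They were short and lay away from the listed early binding sites of 2 transcription factors. They were chosen from the 7845 H3K9ac regions listed at 240 h by a width below 2500 bp and by the absence of a C/EBPβ or glucocorticoid receptor (GR) peak of the 6 h lists at a gap under 1000 bp, where overlap counts as a gap below 0. This left 5181 regions, 66.0% (95% Wilson interval 65.0 to 67.1%) of the 240 h list, out of 13903 H3K9ac regions listed at all times. They are called narrow late regions below, a name for the time of the list and not for when acetylation began. The other 240 h regions were 1646 of 2500 bp or more without a C/EBPβ or GR 6 h peak under 1000 bp away, called broad late regions, and 1018 of any width with such a peak. All of these come from the authors' list of regions outside transcription start sites with more H3K9ac at 240 h than at 0 or 24 h.

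3T3-L1 is an established mouse fibroblast line that turns into fat cells in culture. The chromatin was profiled by immunoprecipitation and sequencing of cross-linked nuclei, with cells grown in high-glucose medium with serum, in undifferentiated cells (0 h) and after induction by a standard protocol that the labels do not spell out. The groups used were H3K9ac at 0, 24 and 240 h (the last is 10 days after induction), C/EBPβ at 0 and 6 h, and GR at 6 h, the last with a pair of antibodies. Every group was 1 library without a treated or genetically altered arm, and the lists give no read totals, so depth is unknown and nothing can be set against the error between replicates. Brackets give 95% intervals of counting error over regions of 1 library, which do not measure the spread between cultures. The differentiated state of the cells was not checked against marker genes, since the lists hold no gene names and no gene table on their genome build (mm8) was used.

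As background, H3K9ac is laid down by histone acetyltransferases at active promoters and enhancers and is removed by deacetylases, so its presence outside start sites marks regulatory DNA in use. C/EBPβ is a basic leucine zipper factor that is induced early in adipogenesis and helps to switch on the later regulators PPARγ and C/EBPα. GR is a nuclear receptor that binds DNA when glucocorticoids, a usual ingredient of the inducing hormone mixture, are present. By the time cells have filled with lipid, PPARγ and C/EBPα are the factors best known at adipocyte enhancers. No list of either was used here.

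The narrow late regions were short and of modest signal, and most were not near the top of the authors' ranking. These values belong to the contrast that placed the regions in the list, and are given as a description without a test. Widths ran from 650 to 2450 bp with a median of 1300 bp and quartiles of 1050 and 1750 bp. The commonest width was 1000 bp, shared by 698 regions (13.5%), and 434 regions (8.38%) were narrower than 1000 bp. The narrow late regions covered 7.44 Mb in all, which was 44.8% of the 16.6 Mb of the 240 h list. The authors' average read count, a read signal per region given in whole numbers, was 10 at the median, 10 and 12 at the quartiles and 34 at most. Broad late regions stood at 12 at the median and at 11 and 14 at the quartiles, and regions near early factors at a median of 12. A count of 20 or more was listed for 33 narrow late regions (0.637%).

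The authors' false discovery rate (FDR) was listed in 5 steps. It was written as 0 for 1609 narrow late regions (31.1%), while 45.3% of all 240 h regions had an FDR of 0. The highest step, 2.33e-05, held 1332 of the narrow late regions (25.7%). The list fell into 3 runs at whose starts the FDR dropped back to 0, and 27.7%, 53.4% and 100.0% of the narrow late regions in them, in list order, had an FDR of 0. The labels name either 0 or 24 h as the time compared with and do not say which applies to a region, so the runs may hold different contrasts and these shares may pool them. Among broad late regions 81.1% had an FDR of 0, and among regions near early factors 59.6%. Within the narrow late regions an FDR of 0 went with width. No region under 1000 bp had an FDR of 0, against 16.5% of those from 1000 to 1200 bp. The share was 39.3% from 1250 to 1450 bp and did not rise from 1500 to 1700 bp, at 38.8%. It was 46.4% from 1750 to 1950 bp and 58.7% from 2250 to 2450 bp. The mean read count across the same widths ran from 9.88 under 1000 bp to 11.7 from 2250 bp. An FDR of 0 rose more steeply with the read count. It was listed for 0.0934% of narrow late regions at counts of 8 or 9, 4.28% at 10 and 46.5% at 11 or 12. From 13 to 15 it was 97.9%, and from 16 upward 100.0%. An FDR of 0 was thus more usual in wider regions and in those of higher count, and the part of each was not tested.

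**Figure D1:**
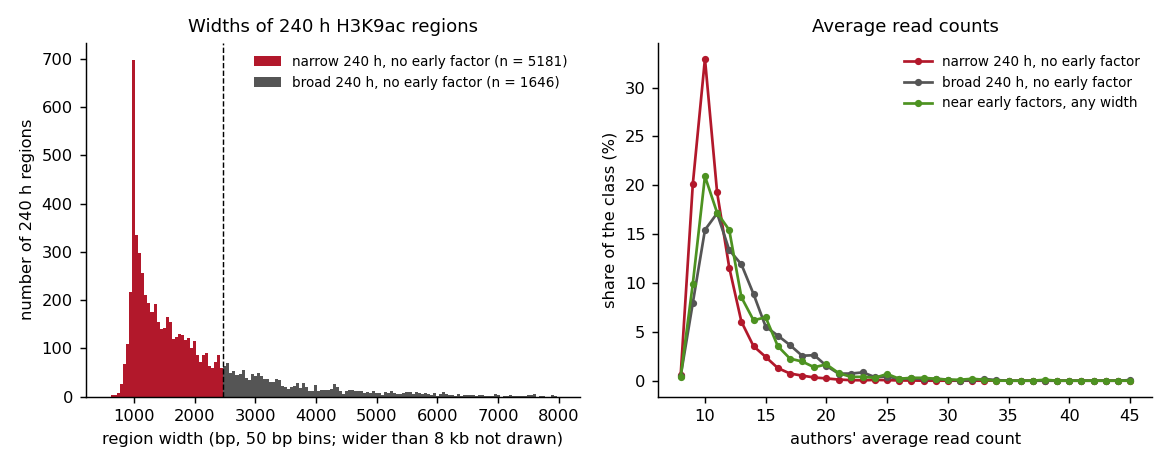
Left, the number of 240 h regions per 50 bp of width for narrow late regions (red, n = 5181) and broad late regions (grey, n = 1646), with the 2500 bp limit as a dashed line. Right, the share of each class (percent) at each value of the authors' average read count. The widths form 1 continuous distribution with a spike of 698 regions at 1000 bp, and the narrow late regions peak at a count of 10.

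The 2500 bp limit did not fall at a break in the data. The 59 widest narrow late regions, of 2450 bp, had a median read count of 11 and an FDR of 0 in 57.6% of cases. The 64 narrowest broad late regions, of 2500 bp, had a median of 11 and an FDR of 0 in 54.7%. At the limit on distance, the narrow late region closest to an early peak had a gap of 1006 bp and a read count of 15, and the excluded narrow region farthest from one had a gap of 996 bp and a count of 11. There were 100 narrow late regions with a gap from 1000 to below 1500 bp, with a median count of 10, and 75 excluded narrow regions with a gap from 500 to below 1000 bp, with a median count of 11.

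The strongest narrow late region, at 133816800 to 133818800 on chromosome 1, had a read count of 34. It was 400 bp from the next 240 h region and 51283 bp from the nearest C/EBPβ 6 h peak. The region on chromosome 17 at 53008050 to 53009900 followed with a count of 27, and stood 109700 bp from any other 240 h region. Next came chromosome 19 at 41869250 to 41871250 with a count of 26. A count of 25 was listed for chromosome 17 at 88425050 to 88426350, for chromosome 11 at 76527400 to 76529150 and for chromosome 7 at 63786100 to 63788500. A count of 24 was listed for chromosome 9 at 65002850 to 65004300 and for chromosome 2 at 26435900 to 26438200. All 8 had an FDR of 0. Of these 8 regions, 4 had another 240 h region 300 or 400 bp away. Only the chromosome 9 region had a C/EBPβ 6 h peak within 5 kb, at a gap of 3896 bp. The region on chromosome 17 at 88425050 overlapped a C/EBPβ 0 h peak, and that on chromosome 11 had one at 935 bp.

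C/EBPβ of undifferentiated cells was rare at narrow late regions. The 0 h list was not used to choose them, although it shares most of its sites with the 6 h list that was. A C/EBPβ 0 h peak lay at a gap under 1000 bp from 99 of the 5181 regions (1.91%, 1.57 to 2.32%), and from 7.84% of all 240 h regions, which include those near C/EBPβ at 6 h. In 78 of the 99 the peak overlapped the region, and in 51 its centre lay within 500 bp of the region's centre. The regions met 96 different C/EBPβ 0 h peaks, and none of the 96 overlapped a 6 h peak, which the choice of regions largely fixes. These were 3.23% (2.65 to 3.93%) of the 2974 C/EBPβ 0 h peaks with no overlapping 6 h peak. Their peak heights, the authors' whole-number read signal, ran from 12 to 64 with a median of 16. The median was 14 for all peaks listed at 0 h alone and 18 for the whole 0 h list.

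Broad late regions were near a C/EBPβ 0 h peak more often than narrow ones, with 1.91% of narrow late regions against 3.40% (2.63 to 4.39%) of broad late regions. The difference was -1.49 points (95% Newcombe interval -2.54 to -0.616), counted from the edges of regions of unequal width. With the peak centre within 1000 bp of the region centre, which gives every region the same window, it was -0.0962 points (-0.891 to 0.536), and the share of narrow late regions was 1.54%. With peaks up to 10 kb away it was 2.11 points (-0.151 to 4.26).

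The same rule was applied to the H3K9ac lists of the other times, which also hold regions that differ between times. It gave 2783 of 4429 regions (62.8%) at 0 h, 905 of 1629 (55.6%) at 24 h and 5181 of 7845 (66.0%) at 240 h. A C/EBPβ 0 h peak lay near 4.42% (3.72 to 5.25%) of the narrow regions at 0 h, 0.663% (0.304 to 1.44%) at 24 h and 1.91% at 240 h. The 240 h share differed from the 0 h share by -2.51 points (-3.40 to -1.70). It was 1.25 points above the 24 h share (0.401 to 1.79), which rests on 6 regions at 24 h. The sign of the difference from 24 h turned with the distance, to -6.92 points (-10.1 to -3.86) for peaks up to 10 kb away, and also when H3K9ac regions were kept unless a 6 h peak overlapped them, to -0.817 points (-2.24 to 0.320).

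The 5 narrow late regions with the highest C/EBPβ 0 h peaks had read counts of 11 to 20, against a median of 10 over all narrow late regions. On chromosome 5 at 105592900 to 105594050, with a read count of 11, the peak lay at 105594410 to 105594678 with a height of 64, enriched 27.86-fold. The region on chromosome 15 at 100940650 to 100942200, with a count of 18, held a peak of height 57. That on chromosome 4 at 91492200 to 91493200, with a count of 11, held a peak of height 51. A single peak of height 31 on chromosome 11 was shared by the neighbouring regions at 54928000 to 54929700 and at 54929900 to 54932050, which had counts of 20 and 15. The 99 narrow late regions near a C/EBPβ 0 h peak had a median count of 11, against 10 for the others. Across all narrow late regions, a C/EBPβ 0 h peak was near 10 of the 182 with a read count of 16 or more (5.49%, 3.01 to 9.82%) and near 89 of the 4999 with a lower count (1.78%, 1.45 to 2.19%). The stronger regions were also wider, with medians of 1750 and 1300 bp, and the part of width in this was not tested.

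Beyond the 1 kb that the rule cleared, most narrow late regions had no listed early factor peak within 10 kb. A C/EBPβ 6 h peak had its centre within 10 kb of the region's centre for 1272 of them (24.6%, 23.4 to 25.7%), and for 32.9% of all 240 h regions. A GR peak did so for 291 (5.62%, 5.02 to 6.28%), and for 7.61% of all 240 h regions. Both whole-list shares include the regions that the rule removed for having such a peak. Both factors were within 10 kb of 224 narrow late regions, C/EBPβ alone of 1048, GR alone of 67 and neither of 3842 (74.2%). Thus 77.0% of the narrow late regions with GR within 10 kb also had C/EBPβ there. This pairing was not shown to be particular to narrow late regions. Direct overlap with C/EBPβ at 6 h held for 65.0% (59.4 to 70.2%) of the 297 GR peaks beside them. Over all 4007 listed GR peaks the share was 66.6% (65.1 to 68.0%). The median gap to the nearest C/EBPβ 6 h peak was 24.2 kb, with quartiles of 9.36 and 59.6 kb. The median gap to the nearest GR peak was 160.2 kb.

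Narrow regions of the earlier times lay closer to the early factors, even though all had been cleared by the same rule. C/EBPβ 6 h peaks were within 10 kb of 32.8% (31.1 to 34.6%) of narrow regions at 0 h, 44.9% (41.7 to 48.1%) at 24 h and 24.6% at 240 h. The 240 h share differed from the 24 h share by -20.3 points (-23.8 to -16.9) and from the 0 h share by -8.29 points (-10.4 to -6.20). GR peaks were within 10 kb of 8.73% (7.74 to 9.84%) of narrow regions at 0 h, 20.8% (18.3 to 23.5%) at 24 h and 5.62% at 240 h. Those differences were -15.2 points (-18.0 to -12.6) from the 24 h share and -3.11 points (-4.37 to -1.92) from the 0 h share. When regions with an early peak under 5000 bp away were removed, these differences were smaller. For C/EBPβ they were -5.77 points (-9.20 to -2.73) from 24 h and -3.34 points (-5.16 to -1.57) from 0 h. For GR they were -4.12 points (-6.48 to -2.28) from 24 h and -0.496 points (-1.43 to 0.341) from 0 h. That clearance also takes up part of the 10 kb window in every class. Median gaps to the nearest C/EBPβ 6 h peak were 18.0, 10.9 and 24.2 kb at 0, 24 and 240 h.

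**Figure D2:**
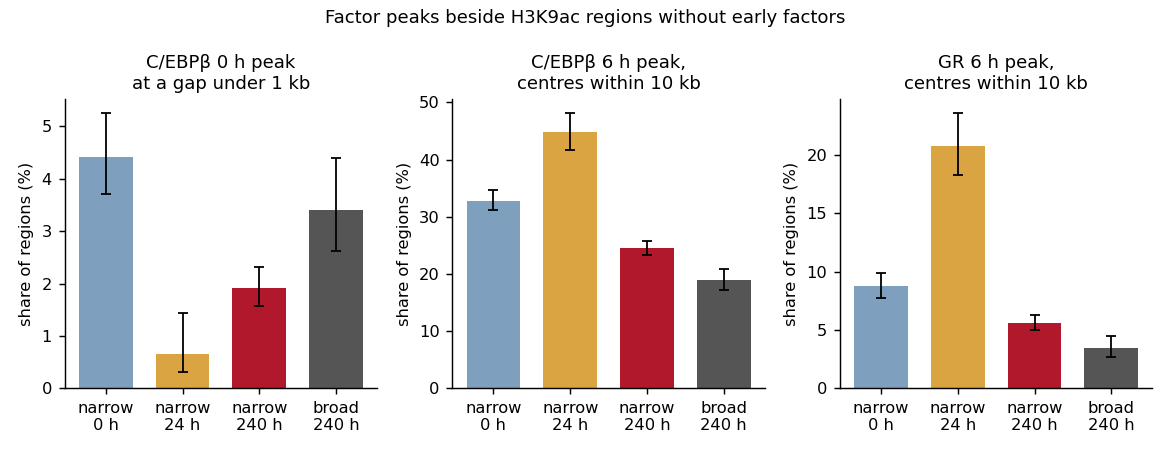
Share of regions (percent) with a factor peak, for narrow regions without early factors at 0, 24 and 240 h and for broad late regions; bars are shares and whiskers 95% Wilson intervals of counting error in 1 library each. Narrow late regions stand at 1.91% for C/EBPβ 0 h peaks, 24.6% for C/EBPβ 6 h peaks and 5.62% for GR peaks, below the narrow 24 h regions for both 6 h factors.

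Between the 240 h classes the contrast was small and moved with the measure of distance. Within 10 kb of the centre, C/EBPβ 6 h peaks were found for 24.6% of narrow against 18.96% (17.1 to 20.9%) of broad late regions, a difference of 5.60 points (3.32 to 7.77). A wide region clears more DNA around its centre under the rule. With the distance measured from the region's edge, so that each class had the same length of flank, the difference was 2.53 points (0.0968 to 4.87). GR gave 5.62% of narrow against 3.46% of broad late regions, a difference of 2.15 points (0.993 to 3.18) from the centre and 1.32 points (0.00969 to 2.48) from the edge. Within 50 kb both intervals included 0, at 2.102 points (-0.433 to 4.70) for C/EBPβ and 2.18 points (-0.195 to 4.46) for GR.

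**Figure D3:**
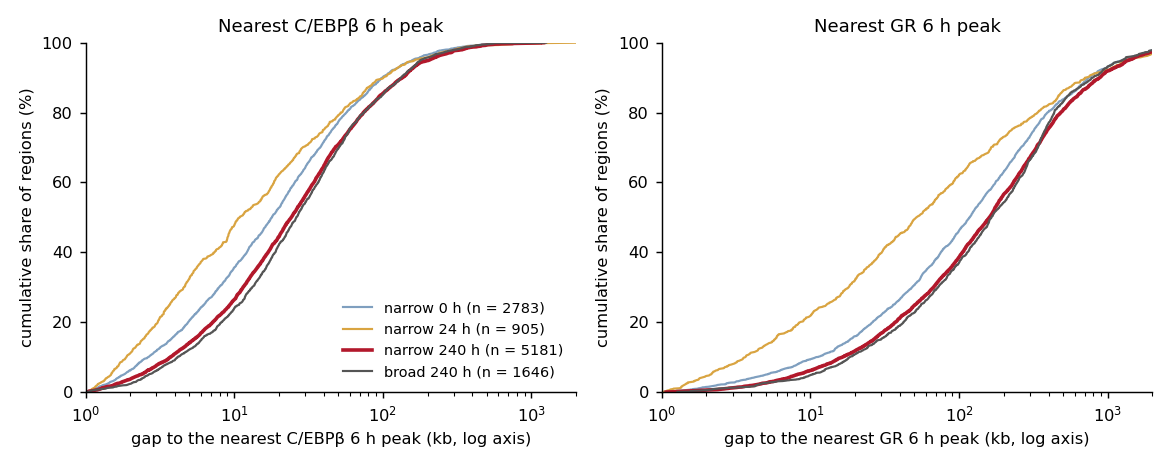
Cumulative share of regions (percent) against the gap to the nearest C/EBPβ 6 h peak (left) and GR 6 h peak (right) in kb on a log axis that starts at the 1 kb cleared by the rule. The curve of narrow late regions (red) runs close to that of broad late regions (grey) and to the right of the narrow 0 h and 24 h regions, with a median of 24.2 kb for C/EBPβ.

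The C/EBPβ 6 h peaks that did flank narrow late regions were more often sites already listed in undifferentiated cells. There were 1468 such peaks at a gap of 1 to 10 kb, and 43.1% (40.6 to 45.7%) of them overlapped a C/EBPβ 0 h peak, against 35.1% of the 19278 other C/EBPβ 6 h peaks. The difference was 8.04 points (5.44 to 10.7). It was not shown to be particular to narrow late regions: flanking peaks of broad late regions had 38.5% (34.2 to 42.9%), a difference of 4.64 points (-0.477 to 9.62) with 185 peaks shared by both sets. Flanking peaks of narrow 24 h regions had 39.3% and those of narrow 0 h regions 47.0%. GR overlapped 13.2% (11.6 to 15.04%) of the C/EBPβ 6 h peaks flanking narrow late regions and 13.03% of the other peaks, a difference of 0.185 points (-1.52 to 2.07). For flanking peaks of narrow 24 h regions the GR share was 26.3%, from which the narrow late regions differed by -13.1 points (-17.0 to -9.37). This division of peaks was chosen with the data in view.

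The highest early peaks close to narrow late regions lay beside regions with read counts of 9 to 12, against a median of 10 over all narrow late regions. On chromosome 15, the region at 8829100 to 8830300 (read count 11) had a C/EBPβ 6 h peak of height 88 at a gap of 2627 bp. On chromosome 6, the region at 17126050 to 17127600 (count 12) had one of height 78, and the region at 90340850 to 90342250 (count 11) one of height 77. The highest GR peak at 1 to 5 kb, with a height of 89, lay 2049 bp from the region on chromosome 6 at 72495150 to 72496900 (count 11). A GR peak of height 76 at 144711001 to 144711795 on the same chromosome had narrow late regions on both sides, at 144705200 to 144707150 (count 9) and 144715950 to 144717200 (count 10).

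Regions of the 0 and 24 h H3K9ac lists were seldom near narrow late regions. The lists hold regions that differ between times, and no 240 h region overlapped a region of the 0 or 24 h lists. The way the lists were made may fix this, but the labels do not say so. Closeness was therefore read from the flanks. DNA acetylated alike at all times need not be in any list, so these shares cannot show that earlier acetylation was absent nearby. A 0 h region had its centre within 10 kb of 171 narrow late regions (3.30%, 2.85 to 3.82%), and of 3.00% of all 240 h regions. A 24 h region did so for 79 (1.52%, 1.23 to 1.90%), and for 1.44% of all 240 h regions. Narrow late regions thus stood near the level of the whole list for both. Set against broad late regions, the 0 h share was 3.30% against 1.94%, a difference of 1.36 points (0.448 to 2.12), and the 24 h share 1.52% against 0.729%, a difference of 0.796 points (0.177 to 1.28). Measured from the edge, these were 0.858 points (-0.216 to 1.79) and 0.641 points (-0.0796 to 1.22), within counting error.

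Neighbours from the same list were common. Another 240 h region had its centre within 10 kb of 2757 narrow late regions (53.2%, 51.9 to 54.6%), and of 55.4% of all 240 h regions. For broad late regions the share was 66.9% (64.6 to 69.1%), so that narrow late regions differed by -13.7 points (-16.3 to -11.0). At a gap under 1 kb, 1272 narrow late regions (24.6%) had another 240 h region, against 652 of the broad late regions (39.6%). Regions near early factors had one in 255 cases (25.05%), so narrow late regions stood close to that class and below the broad one. By comparison 21 narrow late regions (0.405%) had a 0 h region and 9 (0.174%) a 24 h region that close. Those lists are shorter, with 4429 and 1629 regions, and do not overlap the 240 h list. The smallest gap to the next 240 h region was 100 bp, found for 139 narrow late regions. The nearest region at a gap under 1 kb was another narrow late region in 792 cases (62.3%), a broad late region in 386 (30.3%) and a region near early factors in 94 (7.39%). In the whole 240 h list these classes made up 66.04%, 20.98% and 12.98%. Narrow late regions were thus no more frequent among these neighbours than in the list, and broad late regions were more frequent. The rule partly fixes this comparison. It allows no early peak under 1 kb from a narrow late region, so regions near early factors are fewer among such close neighbours.

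Some narrow late regions therefore sat in longer stretches of closely spaced 240 h regions. When 240 h regions at gaps under 1 kb were joined, 3909 narrow late regions (75.4%) stood alone and 1272 were joined to others. The joined stretch spanned 2500 bp or more for 1212 of them (23.4% of all narrow late regions). Pairs that were each other's nearest neighbour and both narrow late regions numbered 361. Such pairs had a median joined span of 3250 bp, and 328 of them (90.9%) reached 2500 bp. Regions joined to others were slightly stronger than those alone, with an FDR of 0 in 36.3% against 29.3% and a count of 13 or more in 19.2% against 14.3%. Leaving out every 240 h region with a neighbour under 1 kb, the share with a C/EBPβ 6 h peak within 10 kb was 24.4%, against 24.6% over all narrow late regions.

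With gaps up to 10 kb allowed, 2908 narrow late regions (56.1%) belonged to chains of 2 or more 240 h regions and 2273 (43.9%) were alone. Chains with a broad late region took in 1350 narrow late regions (26.1%), chains with a region near early factors 607 (11.7%), and 1221 (23.6%) were chained to other narrow late regions alone. Most narrow late regions in chains were therefore linked to no region near early factors, but such regions were only 12.98% of the 240 h list. Whether these links were rarer than the make-up of the list would give was not tested.

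**Figure D4:**
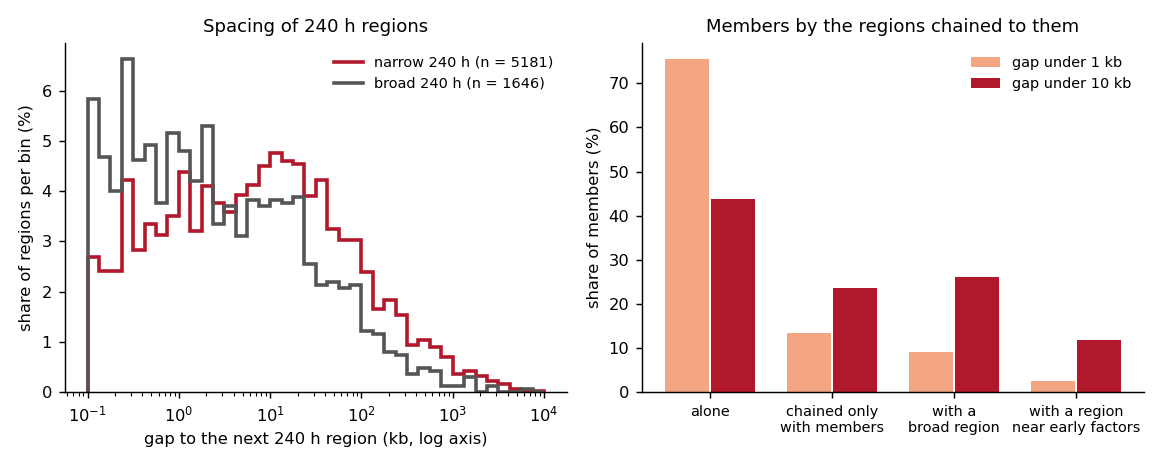
Left, the share of narrow (red) and broad (grey) late regions per bin of the gap to the next 240 h region, in kb on a log axis. Right, the share of narrow late regions that were alone, chained to other narrow late regions alone, or in a chain with a broad region or with a region near early factors, for gaps under 1 kb and under 10 kb; the last 2 categories can share regions. At 10 kb, 43.9% were alone and 11.7% were in a chain with a region near early factors.

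The chain with most narrow late regions lay on chromosome 11 from 54881350 to 54935100, with 12 of them and 2 broad late regions in 53.75 kb. Read counts of its narrow late regions were 11, 18, 10, 13, 18, 14, 10, 14, 20, 15, 10 and 10 along the chromosome, and its broad regions had 23 and 13. The chain held no region near early factors, and the closest C/EBPβ 6 h peak was 15144 bp away. A second chain, on chromosome 4 from 134526550 to 134587200, held 11 narrow and 2 broad late regions. The third, on chromosome 6 from 88668450 to 88797800, spanned 129 kb with 10 narrow and 10 broad late regions and 3 near early factors, and acetylated regions covered 99.05 kb of it.

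**Figure D5:**
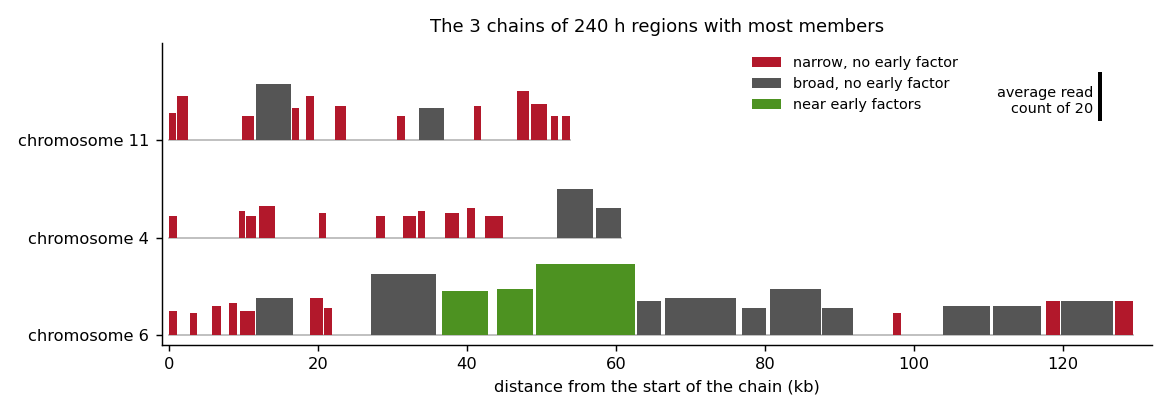
The 3 chains of 240 h regions with most narrow late regions, drawn to scale from the start of each chain in kb; bar height is the authors' average read count (scale bar, 20). Narrow late regions (red) make up 12 of 14, 11 of 13 and 10 of 23 regions, and regions near early factors (green) occur in the chromosome 6 chain.

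In fixed windows of 100 kb, narrow late regions averaged 0.198 per window and 906 of them (17.5%) lay in the 149 windows that held 5 or more. The densest window, on chromosome 11 from 53600000 to 53700000, held 13 with read counts of 9 to 15, beside 2 broad regions, 1 C/EBPβ 6 h peak and no GR peak. The next, on chromosome 4 from 134500000, held 12. Windows with 10 lay on chromosome 15 from 76800000, on chromosome 7 from 15900000 and on chromosome 8 from 73100000. The chromosome 8 window held no broad region, no region near early factors and no C/EBPβ or GR peak of any list. At the other end, the most isolated narrow late region, on chromosome 4 at 25069000 to 25070250, was 7697850 bp from the next 240 h region and 1205257 bp from the nearest C/EBPβ 6 h peak, yet had a read count of 17 and an FDR of 0. The next 4 by isolation lay on chromosomes X (at 165149450 and at 147564400), 3 (at 156492600) and 1 (at 99806600). They had read counts of 9 or 10 and the highest listed FDR.

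Narrow late regions were unevenly spread over chromosomes. Chromosomes 6 and 11 held the most, with 481 and 474, and density was highest on chromosomes 11 and 19, with 3.90 and 3.86 regions per Mb up to the highest listed coordinate, against 1.98 over all chromosomes. Chromosome X held 40, or 0.242 per Mb. These were 0.772% of the narrow late regions, against 71 of the narrow 0 h regions (2.55%), a difference of -1.78 points (-2.46 to -1.19). The share of the 240 h list that narrow late regions made up varied less, from 60.0% on chromosome 12 to 70.1% on chromosome 4 among autosomes, and was 80.0% (67.0 to 88.8%) on chromosome X, where 50 regions were listed. Chromosomes were singled out with their values in view. At the extremes of width, the narrowest region, on chromosome 8 at 87129350 to 87130000, had a read count of 11, and 3 regions shared its 650 bp. The widest, on chromosome 10 at 42034000 to 42036450, had a count of 20.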

How the data were processed

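ChIP-seq libraries of 3T3-L1 cells, 1 per group, were grouped by their titles. Per the labels' protocols, reads of 36 bp were mapped to mm8 with ELAND with at most 2 mismatches. Reads with a single placement were retained, 1 per start coordinate, which leaves repeats uncovered and caps strong peaks. No source used here names the peak caller, its thresholds or the use of input. The authors deposited, for each factor peak, a fold enrichment (a ratio over an undescribed background) and a peak height (a read signal). For each H3K9ac region they deposited an FDR (a q-value) and an average read count (a signal whose averaging is not described). All are the authors' values, used within a list. H3K9ac boundaries fell on a 50 bp grid. Input libraries and the input-bias regions were not used here.

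Gaps between edges, distances between centres, Wilson and Newcombe intervals and chains were computed with Python 3.11.15, numpy 2.4.6 and pandas 2.3.3, and plots drawn with matplotlib 3.10.9. Distances and intervals were checked on simulated lists. Genome sequence and gene positions on mm8 were not used here, so no gene is assigned and no sequence printed. The regions, comparisons and rules were chosen with earlier results of these data known. Named regions are the 8 with the highest read count, the 5 with the highest C/EBPβ 0 h peak under 1000 bp, the 3 with the highest C/EBPβ 6 h and the 3 with the highest GR peak at 1000 to 5000 bp, the 5 most isolated, the narrowest and widest, and the 3 chains and 3 windows with most members (5 windows, since 3 tied for the third place). Ties went to the lower FDR, the narrower region or the order of the list.

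Alternatives changed the distance, the width limit, the clearance from early factors, the FDR, the peaks used and the chromosomes. Leaving out regions with a neighbour under 1 kb, using the first run of each list, and the flanking peaks were added after seeing the data.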

Additional observations from a re-analysis of the deposited data

How the results depend on the processing

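No paired analysis was possible because each group is 1 library. Leaving aside the 2 alternatives added last, 100 differences of shares kept their direction and their side of 0, 14 lost an interval that excluded 0 and 3 changed sign. Under the same alternatives 25 shares stayed within their 95% interval and 32 moved out of it, and shares move with the distance by construction. Depth is unknown, which limits any statement on peaks missing from a list.

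Narrow late regions near a C/EBPβ 0 h peak made up 1.51% by overlap, 21.4% for gaps under 10000 bp, 1.54% with centres within 1000 bp, 1.43% for widths below 1500 bp, 3.12% when early peaks were excluded by overlap alone, 2.67% with an FDR of 0 and 0.753% for the stronger peaks (height at or above the list's median). The difference from broad regions was 2.11 points (reversed) for gaps under 10000 bp, -0.0962 with centres within 1000 bp and -1.22 with an FDR of 0. The difference from narrow 24 h regions was -6.92 (reversed) for gaps under 10000 bp, -0.817 (reversed) with early peaks excluded by overlap alone, 0.840 for widths below 1500 bp, 0.930 with early peaks cleared to 5000 bp and 2.67 with an FDR of 0.

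With centres within 5 and 50 kb, the shares were 11.5% and 70.4% for C/EBPβ 6 h, 1.80% and 24.5% for GR, 1.33% and 17.7% for H3K9ac 0 h, 0.656% and 9.32% for H3K9ac 24 h, and 39.4% and 79.5% for other 240 h regions. Gaps under 10000 bp gave 26.5% for C/EBPβ 6 h, 3.96% for H3K9ac 0 h and 56.1% for other 240 h regions. Widths below 1500 bp gave 26.5% for C/EBPβ 6 h and 51.5% for other 240 h regions. Clearing early peaks to 5000 bp gave 12.1% for C/EBPβ 6 h, 2.67% for GR and 1.18% for H3K9ac 24 h, and excluding them by overlap alone 27.0% for C/EBPβ 6 h. An FDR of 0 gave 23.0% for C/EBPβ 6 h, 2.36% for H3K9ac 0 h, 1.12% for H3K9ac 24 h and 55.9% for other 240 h regions. Stronger peaks gave 15.4% for C/EBPβ 6 h and 3.57% for GR.

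Narrow minus broad lost its interval at 2.102 points for C/EBPβ 6 h within 50 kb, at 0.701 and 2.18 for GR within 5 and 50 kb, at 1.94 for H3K9ac 0 h within 50 kb, 0.858 from the edge and 0.714 with an FDR of 0, and at 0.641 for H3K9ac 24 h from the edge and 0.370 with an FDR of 0. The GR difference from narrow 0 h regions was -0.496 with early peaks cleared to 5000 bp. Among alternatives chosen after seeing the data, leaving out regions with a 240 h neighbour under 1000 bp gave 3.86% for H3K9ac 0 h, 37.99% for other 240 h regions, which it lowers by construction, and a narrow minus broad difference of 0.706 for H3K9ac 24 h. The first run of each list gave 1.17% for H3K9ac 24 h and a difference of 0.656. For the rest the cause was not tested.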

Other observations

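The 240 h list was not in 1 sorted order. It fell into 3 runs, of 6448, 1240 and 157 regions, at each of whose starts the listed FDR dropped back to 0, and the labels do not say what the runs are or whether they hold contrasts with different times. The narrow late regions numbered 4545, 610 and 26 in the runs in list order, which was 70.5%, 49.2% and 16.6% of each run. They had median widths of 1300, 1500 and 2300 bp and an FDR of 0 in 27.7%, 53.4% and 100.0% of cases. H3K9ac regions of 24 h had their centres within 10 kb of 53 narrow late regions of the first run (1.17%, 0.893 to 1.52%) and 24 of the second (3.93%, 2.66 to 5.79%). Regions of 0 h did so for 131 of the first run (2.88%, 2.43 to 3.41%) and 37 of the second (6.07%, 4.43 to 8.25%). The runs were noticed with the data in view, and what sets them apart was not tested.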
